A study of Rattus norvegicus with 2 samples.

Results

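Circular RNAs (circRNAs) form when the spliceosome joins the end of an exon backwards to the start of the same or an earlier exon, and each is counted by reads across that back-splice junction. Described here are the circRNAs of genes named as zinc finger transcription factors in rat spinal cord. They were taken by name: a gene name that begins with Zfp, Znf, Zbtb, Zkscan, Zscan, Zeb, Zfhx, or Klf and a digit, leaving out Zfp609, whose reads are given apart. This gave 119 circRNAs from 61 host genes, of 11599 circRNAs and 3865 host gene names in the table. The BCP group (bone cancer pain) had live Walker 256 rat carcinoma cells, grown beforehand as ascites in SD rats, injected into the marrow of the tibia. The sham group had the same surgery with Walker 256 cells that had been boiled. Spinal cord was taken 21 days after surgery, from 3 animals per group per the labels' protocols. Each group had 1 library, so what is compared below is 2 libraries rather than 2 conditions, with no replicate check and no p-value. The sources used here do not say whether animals were pooled.

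C2H2 zinc finger proteins read DNA through fingers that each fold around a zinc ion, and they are the largest class of transcription factors in mammals. The fingers are joined to other domains that give each family its partners. KRAB proteins recruit the corepressor TRIM28 and silence mobile elements, BTB (Zbtb) proteins dimerize and bind BCOR and other corepressors, SCAN (Zscan and Zkscan) proteins pair with each other, ZEB proteins bind CTBP corepressors, and Krüppel-like factors bind GC-rich and CACCC boxes. The names do not make every member a DNA-binding factor: Zfpm1 and Zfpm2 are cofactors of GATA proteins, Zfp326 and Zfp638 take part in RNA splicing, Zfp451 is a SUMO ligase and Zfp207 a spindle protein. These 6 genes gave 9 circRNAs with 28 reads in BCP and 35 in sham, and the other 110 circRNAs had a depth-scaled ratio of 0.957 (95% interval 0.862 to 1.06), against 0.964 (0.871 to 1.07) with them. No circRNA sequence is shown, because no genome of the rn6 build was used here.

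The libraries held 78836 back-splice reads in BCP and 113033 in sham, a difference in depth of 1.43 times. Values in CPM are reads per 1000000 circRNA reads of the library. All intervals are 95%, exact, and cover counting error only, since each group had 1 library. The sources used here name no molecular identifiers that would tell copies of a molecule apart, so the intervals may be too narrow even for that. The labelled tissue was checked with host genes of circRNAs. Of 11 neuronal genes 8 had circRNAs, with 793 reads in BCP and 1296 in sham (ratio 0.877, 0.802 to 0.959), and none was listed for Gad1, Slc17a6 or Chat. Oligodendrocyte genes (3 of 6 with circRNAs, none for Mag, Mobp and Myrf) had 45 reads in BCP and 11 in sham (ratio 5.87, 2.99 to 12.6). Of 9 genes listed for microglia and macrophages, just Ptprc, Dock8 and Ikzf1 had circRNAs, with 55 reads in BCP and 13 in sham (6.07, 3.27 to 12.1). None was listed for Cx3cr1, Csf1r, P2ry12, Aif1, Itgam and Tmem119, so that ratio rests on the 3 genes with circRNAs alone. Astrocyte genes had 3 reads in BCP and 5 in sham (0.860, 0.134 to 4.42), from 1 of 5 genes, with none for Gfap or Aqp4. The 5 epithelial genes, listed as marks of carcinoma cells, had no circRNA in either library. Several genes listed for cord cell types, Gfap and Chat among them, had none either, so this does not show that carcinoma cells were absent. In whole tissue, fewer cells of a type and less RNA per cell cannot be told apart, and the part of these marker shifts in the results below was not tested.

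As a set, the zinc finger host circRNAs took much the same share of both libraries. They had 633 reads in BCP, or 0.803% of its reads (0.742 to 0.868, Clopper-Pearson), and 941 in sham, or 0.833% (0.780 to 0.887). The ratio of the summed, depth-scaled reads was 0.964 (0.871 to 1.07), an interval that holds 1 with totals as the scale. With 2 other scalings it did not: scaled by median-of-ratios factors it was 0.897 (0.810 to 0.993), and scaled by TMM factors 0.889 (0.803 to 0.985). These scalings lowered every log2 ratio of the whole table alike, by 0.10 or 0.12, so the lower values are not particular to zinc finger hosts. Of the 119 circRNAs, 48 were listed in both libraries (40.3%, against 41.2% of the whole table). A further 24 were listed in BCP alone (20.2%, against 22.4%) and 47 in sham alone (39.5%, against 36.4%), shares near those of the whole table. Most had few reads. The median among those listed was 5 reads in each library, the highest count was 55 in BCP and 74 in sham, and 66 of the 119 had at most 5 reads over both libraries. Since the smallest count above 0 in the table was 2, a listing at 0 does not show absence.

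The 12 circRNAs with most reads came from 9 genes and held 53.9% of all zinc finger host reads. Zfp532, whose human counterpart belongs to a nuclear complex with ZNF592 and ZNF687, hosted the leading ones. Its 16946 bp circRNA (chromosome 18, 61323689 to 61340634, rn6 as in the table) had 55 reads or 698 CPM in BCP (526 to 908) and 74 reads or 655 CPM in sham (514 to 822). Its 5099 bp circRNA (61335536 to 61340634) had 44 reads in BCP and 66 in sham, and its 12107 bp circRNA (61328528 to 61340634) had 27 and 45 reads in BCP and sham. For all 3, the counting intervals of the BCP and sham levels overlapped. The most abundant of them ranked 183 by reads among the circRNAs of the whole table.

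Zfp423, a partner of EBF and SMAD factors needed for cerebellar development in the mouse, had a 59343 bp circRNA (chromosome 19, 20147203 to 20206545) with 37 reads in BCP and 49 in sham, a ratio of 1.08 (0.687 to 1.69). Its paralog Zfp521, which promotes neural differentiation of mouse embryonic stem cells, had a 2753 bp circRNA (chromosome 18, 5059054 to 5061806) with 21 reads in BCP and 37 in sham (0.814, 0.453 to 1.43). Klf7, a factor of axon growth and sensory neuron survival in the mouse, had a circRNA of 773 bp (chromosome 9, 70787138 to 70787910) with 34 reads in BCP and 39 in sham (1.25, 0.765 to 2.03). The intervals of all 3 ratios held 1.

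The GC-box binding factor gene Zfp148 had a 14590 bp circRNA (chromosome 11, 70570466 to 70585055) with 29 reads in BCP and 59 in sham, 0.705 (0.436 to 1.12). Zfp827, whose human counterpart brings the NuRD complex to telomeres, had circRNAs of 2337 bp (chromosome 19, 32470120 to 32472456; 28 reads in BCP and 39 in sham) and of 27441 bp (32470120 to 32497560; 15 reads in BCP and 32 in sham). Zscan2, a SCAN family gene, had a circRNA of 505 bp (chromosome 1, 142682098 to 142682602) with 11 reads in BCP and 18 in sham. The gene field of that circRNA held 23 names, the others being of small RNA families or names that recur along the chromosome, and another circRNA of Zscan2 with 2 reads in sham began 3 bp further on. The remaining circRNAs of the leading 12, of Zfp292 and Zfp536, are taken up with the size rule. The 12 ratios ran between 0.509 and 2.78.

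**Figure D1:**
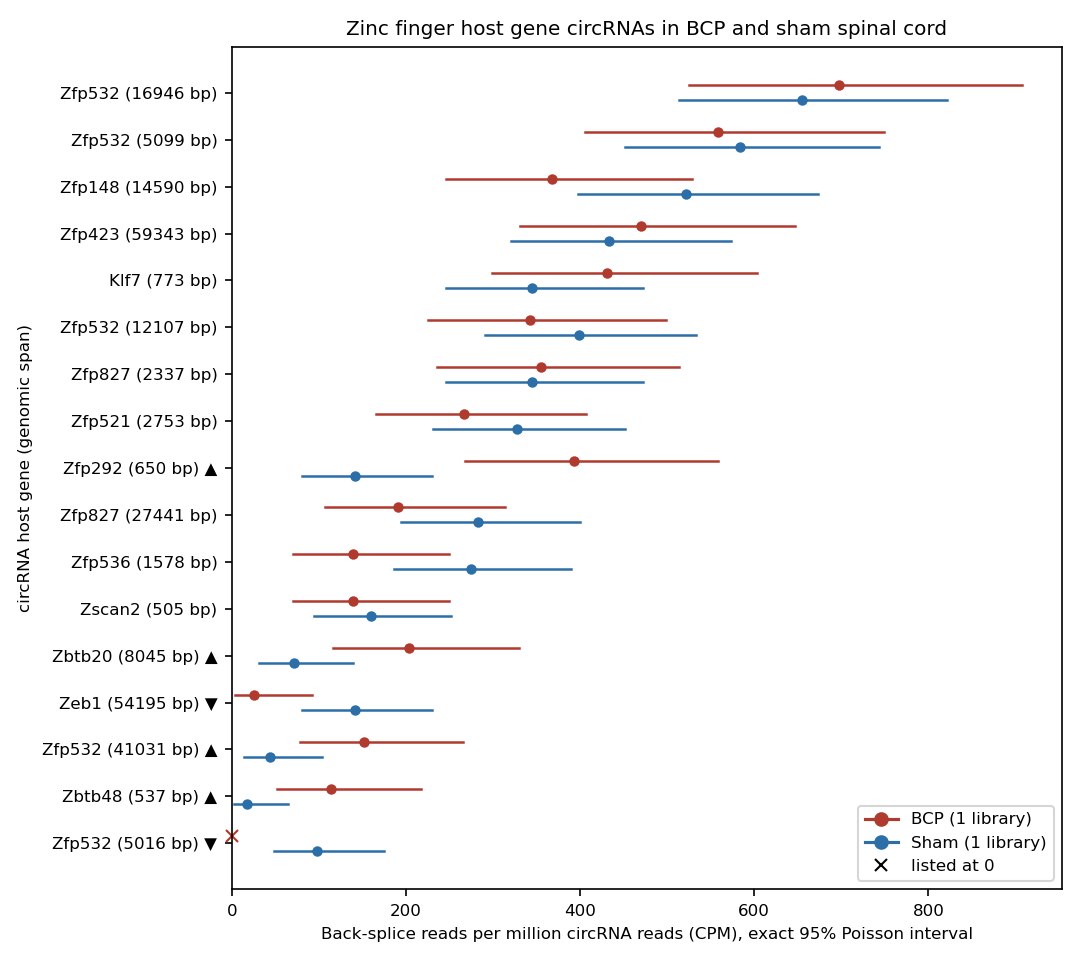
Level in CPM of the 12 zinc finger host circRNAs with most reads and the 5 further ones that met the size rule, with BCP above sham in each row; points are single libraries, bars are exact 95% Poisson intervals, a cross marks a value listed at 0, and triangles mark circRNAs higher (up) or lower (down) in BCP by the size rule. The 3 leading Zfp532 circRNAs overlap between libraries, while the bars of Zfp292 do not, with 393 CPM in BCP against 142 CPM in sham.

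The BCP and sham libraries were then set against each other circRNA by circRNA. Those with 10 or more reads in the 2 libraries together were tested, and one met the size rule when it was at least 2-fold higher or lower and the interval of its ratio left out 1. Of the 119 circRNAs, 36 had enough reads and 83 did not. Among the 36, 4 were higher in BCP, where 7.82% of all 3502 tested circRNAs were, and 2 were lower, against 7.42% of all. That is 11.1% higher and 5.56% lower among the 36, shares close to those of the whole table for so few circRNAs. The median log2 ratio was 0.07 over the 36 and 0.02 over all tested circRNAs. Other scalings moved every log2 ratio by -0.10 or -0.12, which turned both medians negative (-0.03 and -0.09, or -0.05 and -0.10).

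**Figure D2:**
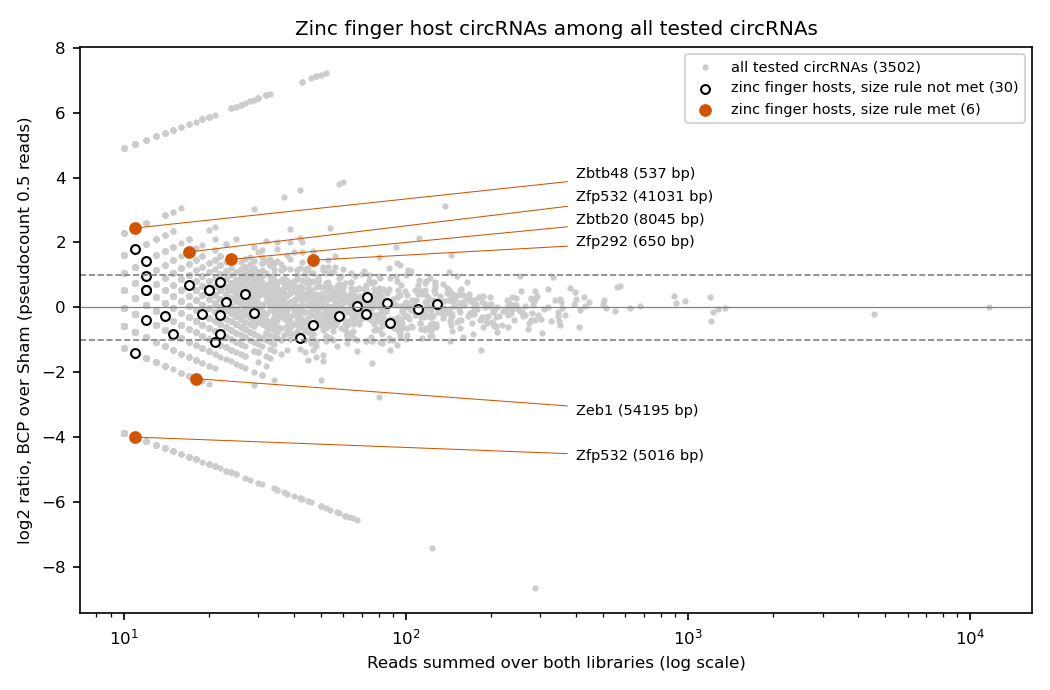
Log2 ratio of BCP over sham (pseudocount 0.5 reads) against reads summed over both libraries (log axis) for all 3502 tested circRNAs (grey) and the 36 of zinc finger hosts (open circles, or orange where the size rule was met); dashed lines mark 2-fold. The 6 orange points all have under 50 reads, and the zinc finger circRNAs with most reads lie near 0.

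The circRNAs higher in BCP had Zfp292, Zbtb20, Zfp532 and Zbtb48 as hosts. Zfp292 encodes a large C2H2 protein first known as an activator of the growth hormone gene in rat pituitary, and mutations in its human counterpart cause intellectual disability. Its single circRNA, 650 bp long (chromosome 5, 50318351 to 50319000), had 31 reads or 393 CPM in BCP (267 to 558) and 16 reads or 142 CPM in sham (80.9 to 230). BCP was 2.78-fold higher (1.47 to 5.44), with intervals that do not overlap.

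Zbtb20, a BTB factor of hippocampal neurons and astrocytes that also sets heat and pain sensing in mouse sensory neurons, had 1 circRNA (chromosome 11, 62059611 to 62067655, 8045 bp). It had 16 reads or 203 CPM in BCP (116 to 330) and 8 reads or 70.8 CPM in sham (30.6 to 139), a ratio of 2.87 (1.16 to 7.74). The intervals of its levels overlapped.

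The others rested on fewer reads. A 41031 bp circRNA of Zfp532 (chromosome 18, 61323689 to 61364719) had 12 reads or 152 CPM in BCP and 5 reads or 44.2 CPM in sham, 3.44-fold higher in BCP (1.13 to 12.5). Zbtb48, whose human counterpart TZAP binds telomeres and trims them, had a circRNA of 537 bp (chromosome 5, 169192181 to 169192717) with 9 reads in BCP and 2 in sham, 6.45-fold higher (1.34 to 61.4). A second circRNA of Zbtb48, of 165 bp, was listed at 0 in BCP and had 3 reads in sham, and the summed reads of the gene (9 in BCP and 5 in sham) did not meet the rule.

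On the lower side stood Zeb1 and another circRNA of Zfp532. Zeb1 represses epithelial genes, drives the epithelial to mesenchymal transition and keeps neural progenitors undifferentiated. Its 54195 bp circRNA (chromosome 17, 54660719 to 54714913) had 2 reads or 25.4 CPM in BCP (3.07 to 91.6) and 16 reads or 142 CPM in sham (80.9 to 230), 5.58-fold lower in BCP (1.31 to 50.02). The 5016 bp circRNA of Zfp532 (61323689 to 61328704) was listed at 0 in BCP and had 11 reads or 97.3 CPM in sham (48.6 to 174), so no fold is given.

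The values near the rule show how fine its edge was. The 1578 bp circRNA of Zfp536 (chromosome 1, 93851663 to 93853240), a gene whose product restrains neuronal differentiation in the mouse, had 11 reads or 139.5 CPM in BCP (69.7 to 250) and 31 reads or 274 CPM in sham (186 to 389). It was 1.97-fold lower in BCP (0.962 to 4.33) and did not meet the rule, but it did with median-of-ratios and TMM scaling. For Zfp382, a KRAB repressor gene, a 3910 bp circRNA (chromosome 1, 88583266 to 88587175) had 5 reads in BCP and 16 in sham, 2.23-fold lower, with an interval that held 1 (0.781 to 7.79). Zfp638 (8 reads in BCP and 4 in sham), Zfp236 (7 in BCP and 5 in sham), Zfp592 (2 in BCP and 9 in sham) and the 180 bp circRNA of Zfp521 (8 in BCP and 3 in sham) likewise passed 2-fold with intervals that held 1.

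The other tested circRNAs had between 12 and 27 reads each. The 94403 bp circRNA of Zbtb16, the PLZF gene of stem cells and spinal cord progenitors, had 10 reads in BCP and 13 in sham, and a 68713 bp circRNA from the same end site had 6 reads in each library. Zfp407 (12 reads in BCP and 10 in sham), Zbtb44 (8 in BCP and 14 in sham), the GATA cofactor gene Zfpm1 (9 in BCP and 8 in sham) and the brown fat regulator gene Zfp516 (4 in BCP and 11 in sham) did not meet the rule. Nor did the KRAB genes Zfp235 (7 in BCP and 12 in sham), Zfp426 (5 in BCP and 9 in sham) and Zfp28 (4 in BCP and 8 in sham). Of the 36 tested circRNAs, 20 had a ratio within 1.5-fold of equality.

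Reads were also summed per host gene. Of the 61 hosts, 27 had at least 10 reads. Zfp292 and Zbtb20, with a single circRNA each, were higher in BCP by the size rule (2 of 27, where 8.82% of all 2144 tested hosts were), and Zfp536, Zeb1 and Zfp382 were lower (3 of 27, where 8.58% of all were). Zeb1 summed to 4 reads or 50.7 CPM in BCP and 25 reads or 221 CPM in sham, 4.36-fold lower in BCP (1.51 to 17.2). All 3 of its circRNAs had fewer reads in BCP than in sham: 2 against 16, 2 against 6 (201 bp) and 0 against 3 (13026 bp). Without the first of these, 2 reads in BCP and 9 in sham did not meet the rule.

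Zfp382 summed to 5 reads in BCP and 24 in sham, 3.35-fold lower in BCP (1.25 to 11.2), and a circRNA of 5701 bp, listed at 0 in BCP, gave 8 of the sham reads. Zfp536 summed to 11 reads in BCP and 34 in sham, 2.16-fold lower (1.07 to 4.72), with 3 of the sham reads from a circRNA of 15057 bp listed at 0 in BCP. Counting just the circRNAs that both libraries listed, Zfp382 (5 reads in BCP and 16 in sham) and Zfp536 (11 in BCP and 31 in sham) did not meet the rule, Zeb1 did (4 in BCP and 22 in sham), and Zbtb48 did as higher (9 in BCP and 2 in sham). The hosts with most reads stayed near equality: Zfp532 had 144 reads in BCP and 217 in sham (ratio 0.951, 0.765 to 1.18), Zfp827 had 80 and 116 in BCP and sham (0.989, 0.734 to 1.33), and Zfp148 had 51 and 74 (0.988, 0.678 to 1.43).

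**Figure D3:**
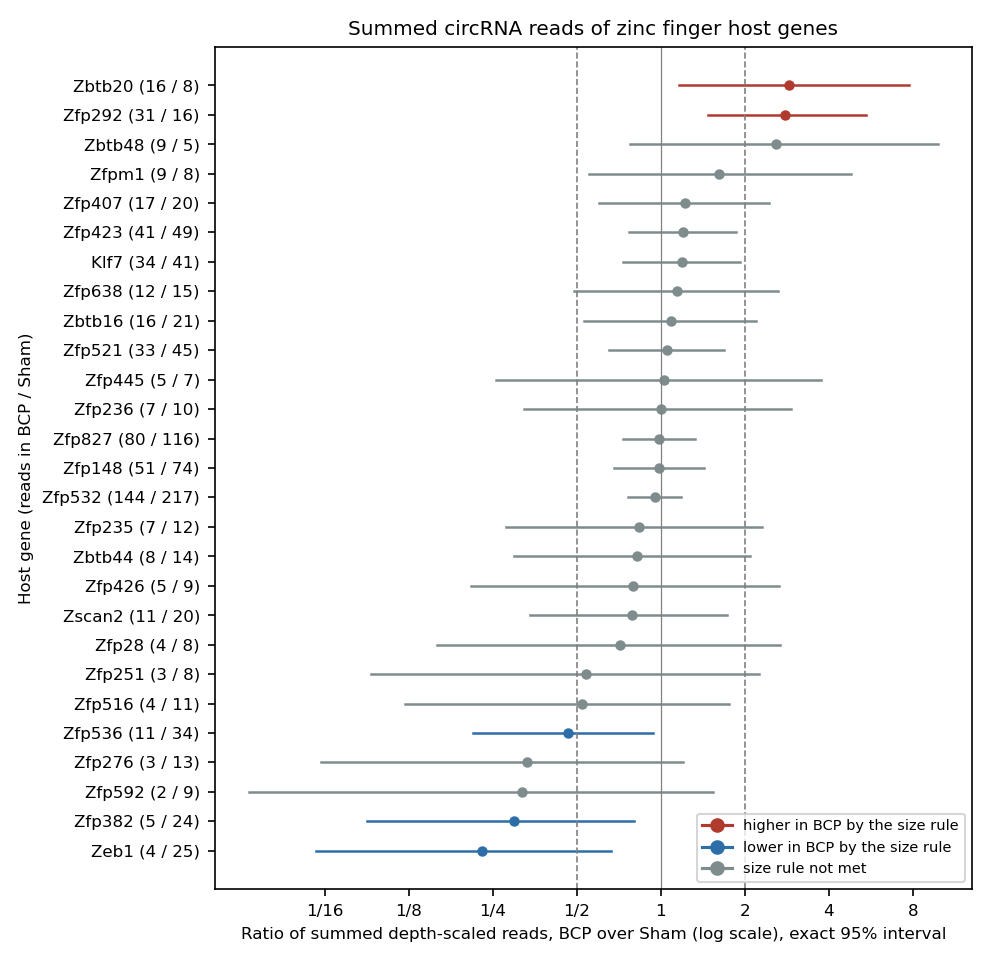
Ratio of summed depth-scaled reads, BCP over sham (log axis), for the 27 zinc finger hosts with at least 10 reads, with exact 95% intervals and the reads in BCP / sham beside each name; dashed lines mark 2-fold either way. Zfp532, Zfp827 and Zfp148, with most reads, have the narrowest intervals around 1, and Zeb1 lies lowest at 4 reads in BCP and 25 in sham.

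Several hosts gave families of circRNAs that reuse the same splice sites. Of the 119 circRNAs, 66 from 20 hosts shared their start or end site with another circRNA of the gene (55.5%, against 59.5% of the other 9885 circRNAs with 1 host). Zfp827 had most, with 12 circRNAs of 234 to 67967 bp built from 6 start and 4 end sites over 77985 bp. Zfp148 had 7, Zfp532 and Zfp521 had 6 each, and Zfp407 and Zfp276 had 4 each. At the other end, 36 of the 61 hosts had 1 circRNA each.

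In Zfp532, 3 circRNAs ended at position 61340634 and held 126 of its 144 reads in BCP and 185 of its 217 reads in sham. Their shares of the gene were close: the 16946 bp circRNA took 38.2% in BCP (30.2 to 46.7) and 34.1% in sham (27.8 to 40.8), and the 5099 bp circRNA took 30.6% in BCP (23.2 to 38.8) and 30.4% in sham (24.4 to 37.0). A further set of 3 began at 61323689 and went different ways. Its 41031 bp circRNA took 8.33% of the gene's reads in BCP (4.38 to 14.1) and 2.30% in sham (0.752 to 5.29), the 5016 bp circRNA was listed at 0 in BCP and took 5.07% in sham (2.56 to 8.89), and the 16946 bp circRNA between them did not meet the size rule. Both Zfp532 calls were thus of minor circRNAs, while the sum of the gene did not meet the rule.

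Zfp148 and Zfp521 were each led by 1 circRNA. In Zfp148 the 14590 bp circRNA took 56.9% of reads in BCP (42.2 to 70.7) and 79.7% in sham (68.8 to 88.2). A 34204 bp circRNA with the same end had 10 reads in each library, and the other 5 were listed in 1 library each, with 12 reads in all in BCP and 5 in sham. Picked after its values were seen, the sum of the gene without the leading circRNA was 22 reads in BCP and 15 in sham and passed the limits of the rule as higher. The same step left Zfp276 with 0 reads in BCP and 10 in sham, which passed them as lower. This step was not run on hosts outside the zinc finger list and has no share beside it. Neither sum is counted as a call. In Zfp521 the 2753 bp circRNA took 63.6% in BCP (45.1 to 79.6) and 82.2% in sham (67.9 to 92.0), and 4 circRNAs ending at 5285225 had 12 reads in BCP and 5 in sham. The intervals of the leading shares overlapped for both genes.

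Zfp827 was spread more evenly. The 2337 bp circRNA took 35.0% of its reads in BCP (24.7 to 46.5) and 33.6% in sham (25.1 to 43.0), followed by the 27441 bp circRNA with 18.8% in BCP (10.9 to 29.03) and 27.6% in sham (19.7 to 36.7). Its 21483 bp circRNA had 13 reads in BCP and 14 in sham, and the 1038 bp circRNA at the far end of the region had 10 in each library. In Zfp423 the leading circRNA took 37 of 41 reads in BCP and all 49 in sham. Zfp407, with 17 reads in BCP and 20 in sham, had the longest circRNA of the list, 119866 bp (5 reads in BCP and 2 in sham).

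**Figure D4:**
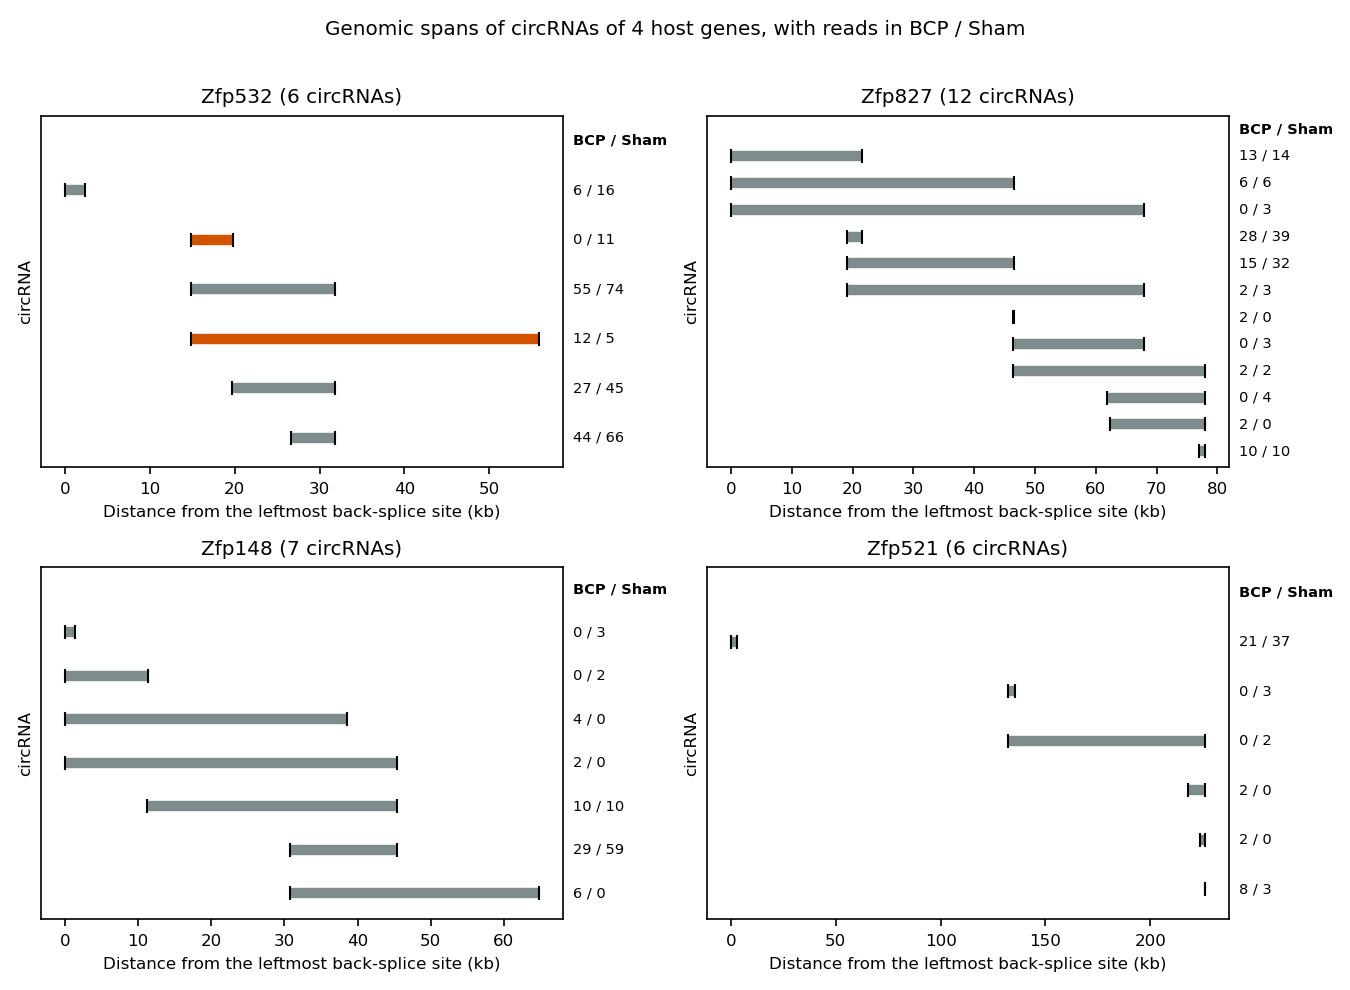
Genomic spans of every listed circRNA of Zfp532, Zfp827, Zfp148 and Zfp521, drawn as distance in kb from the leftmost back-splice site of the gene, with reads in BCP / sham at the right; orange marks circRNAs that met the size rule. The Zfp532 circRNAs with 55, 27 and 44 reads in BCP share their right end, and the orange ones share their left end with the first of these.

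By family, the sums went different ways. The 8 Zbtb hosts, of BTB factors, had 65 reads in BCP and 54 in sham, or 824 CPM in BCP and 478 CPM in sham (ratio 1.73, 1.18 to 2.52), and 1.53 (1.00 to 2.34) without Zbtb20. Zbtb48 also had a circRNA higher by the size rule, and the sum without both genes was not computed. Of these 8 genes 6 had a ratio above 1, among them Zbtb11, listed with 9 reads in BCP and at 0 in sham, and Zbtb37, with 5 in BCP and 3 in sham. Zbtb10, also above 1, had 2 reads in BCP and was listed at 0 in sham. The share of all hosts with a ratio above 1 was not computed. The ZEB genes had 6 reads in BCP and 31 in sham (0.278, 0.0946 to 0.675), with Zeb2, a factor of oligodendrocyte maturation in the mouse, at 2 reads in BCP and 6 in sham. The Krüppel-like factor genes Klf7 and Klf12 had 36 reads in BCP and 47 in sham (1.10, 0.691 to 1.73), and the 3 SCAN family genes had 13 in BCP and 30 in sham (0.621, 0.297 to 1.23). The 45 Zfp genes held 81.5% of the reads, 513 in BCP and 770 in sham (0.955, 0.853 to 1.07, and 0.888, 0.793 to 0.995, with median-of-ratios scaling). That scaling lowered every ratio of the whole table alike. These are sums of few reads, and the families were compared with the values of their members in view.

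The 83 circRNAs under 10 reads came from 51 hosts and had 111 reads in BCP and 210 in sham. Of them 13 were listed in both libraries, 24 in BCP alone and 46 in sham alone. The same split of all circRNAs under 10 reads was not computed. Just under the minimum lay Zfhx4, a zinc finger homeobox gene of neuronal differentiation, listed at 0 in BCP against 9 reads in sham, and Zfp251, with 3 reads in BCP and 6 in sham. Just inside it lay the circRNAs with 11 reads, of Zbtb48, Zfp521, Zfp592 and Zfp532, and 0 circRNAs had 10 reads. Others listed at 0 in BCP were Zfp608, a paralog of Zfp609 (7 reads in sham), and Zfp462 (6 reads in sham). On the other side, Zfp618 had a circRNA with 5 reads in BCP and none listed in sham. Zfp592, the partner of Zfp532 in the human complex, had a single circRNA.

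Zfp609, left out by name, hosts a circRNA known from muscle cells. Its 2 circRNAs had 509 reads in BCP and 773 in sham (ratio 0.944, 0.843 to 1.06), nearly as many as the 633 and 941 reads of all 119 circRNAs together. Other C2H2 factors, in a list of 74 genes, had 32 circRNAs from 16 genes, 11 of them tested. Of these 11, 2 were higher in BCP and 0 lower, where 15.2% of all tested circRNAs met the rule in either direction, and their median log2 ratio was 0.26. They were a 366 bp circRNA of Bcl11b, a factor of corticospinal motor neurons (28 reads in BCP and 15 in sham, 2.68-fold higher in BCP, 1.38 to 5.39), and one of the insulator protein gene Ctcf (15 in BCP and 8 in sham, 2.69-fold, 1.07 to 7.32), which did not meet the rule with the other scalings. A 363 bp circRNA of Bcl11b from the same start site had 8 reads in BCP and 10 in sham (ratio 1.15, 0.393 to 3.23) and did not meet the rule. The list summed to 252 reads in BCP and 349 in sham, a ratio of 1.04 (0.877 to 1.22) that was 0.963 when scaled by median-of-ratios factors.

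The corepressors and coactivators that zinc finger factors recruit had 66 circRNAs from 20 of 39 genes, with 609 reads in BCP and 747 in sham (ratio 1.17, 1.05 to 1.30). With median-of-ratios scaling the ratio was 1.09 (0.975 to 1.21), so that its interval held 1. Of 21 tested, 4 were higher in BCP and 2 lower, where 7.82% of all tested circRNAs were higher and 7.42% lower, with a median log2 ratio of 0.00. Among the hosts of the higher ones were the histone deacetylase gene Hdac2 (43 reads in BCP, listed at 0 in sham), the DNA methyltransferase gene Dnmt3a (592 bp; 35 reads in BCP and 18 in sham, 2.79-fold higher in BCP, 1.54 to 5.23) and the NuRD subunit gene Gatad2a (258 bp; 25 in BCP and 16 in sham, 2.24-fold, 1.15 to 4.49). The 43 reads of Hdac2 are part of the 609 in BCP, and the sum without them was not computed. CircRNAs of Dnmt3a and Gatad2a with more reads did not meet the rule. In Dnmt3a these had 80 reads in BCP and 77 in sham (37002 bp), and 36 and 35 (13561 bp). The one of Gatad2a had 34 in BCP and 49 in sham (15239 bp). Among the lower ones, a 392 bp circRNA of the NuRD subunit gene Mta1 was listed at 0 in BCP, against 11 reads in sham.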

How the data were processed

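RNA from spinal cord of 1 BCP and 1 sham library was freed of ribosomal RNA, treated with 16 units of RNase R for 15 min to deplete linear RNA and made into strand-marked libraries, per the labels' protocols. Where the source label names the injected cells, the tissue label was used. The authors deposited 1 table of circRNAs with back-splice read counts and columns headed TPM. Those columns are CPM values the authors deposited: for every count above 0 (7375 in BCP and 9003 in sham) they equal the count per 1000000 reads of the column to within 0.001. CASAVA 1.8, BWA and rn6 are named, per the submitters' processing notes, and the sources used here name neither the circRNA caller nor its read minimum. RNase R and the caller decide which molecules are counted, and a read minimum drops thinly covered circRNAs to 0, more so in the shallower library. The positions and gene names are those of the table.

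Dropped from the gene field were small RNA families and any name spread over more than 3 Mb of a chromosome (66 names). None of the dropped names was a zinc finger name, and each of the 119 circRNAs then had 1 host. Of the 61 hosts, 59 were found by symbol or synonym in RefSeq (GRCr8), all on the same chromosome. Counts were scaled to library totals. The size rule was at least 10 reads over both libraries, a ratio of at least 2 in either direction and a 95% interval of that ratio (exact binomial, conditional on the reads) without 1. Log2 ratios have a pseudocount of 0.5 reads. With 1 library per group, the design allows no test across replicates. Named circRNAs were those that met the rule, the 12 with most reads, and the hosts with most circRNAs or a sum past the rule. Others were named after their values were seen, and some circRNAs that met the rule are not reported here. The members and lists were chosen with earlier results of these data known. Alternatives were scaling by DESeq2 1.42.0 (median of ratios) or by edgeR 4.0.16 (TMM), other minimums, ratios and pseudocounts, and subsets of circRNAs. Intervals used SciPy 1.17.1 in Python 3.11.15.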

Additional observations from a re-analysis of the deposited data

How the results depend on the processing

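Counts are given with the value under each alternative that moved them over 1.5 times. With at least 5 reads, 7 of 62 zinc finger host circRNAs were higher in BCP (11.05% of all 6246 tested) and 6 lower (8.98% of all). Then 6 host genes were lower, and 4 circRNAs of other C2H2 factors and 12 of corepressors met the rule. Over all circRNAs the shares rose too, from 7.82% higher and 7.42% lower with at least 10 reads. For host genes, the share of all hosts was not computed under the alternatives, so those counts have no share beside them. With at least 20 reads, 2 of 21 were higher (Zfp292 and Zbtb20; 7.72% of all 1800 tested) and 0 lower (6.39% of all). At 3-fold, 2 of 36 circRNAs (5.91% of all) and 0 host genes were higher. There 0 circRNAs of other C2H2 factors and 3 of corepressors met the rule, where 5.91% of all circRNAs were higher and 6.28% lower. Among circRNAs that both libraries listed, 1 of 35 circRNAs (2.65% of all) and 1 host gene (Zeb1 in each case) were lower, and 3 corepressor circRNAs met the rule. With median-of-ratios scaling (6.6% of all higher and 8.74% lower) and with TMM scaling (6.51% and 8.91%), 1 circRNA of other C2H2 factors met it. The other counts, also at 1.5-fold, with 1 name in the gene field, and with the pseudocount in the ratio (added after seeing the data), stayed within 1.5 times. The 6 called circRNAs remained called under both scalings, and Zfp536 joined them as lower. For 17 named circRNAs, 66 of 68 log2 ratios under other scalings and pseudocounts kept their side of the rule. The 2 that did not were of Zfp536 under the other scalings. Calls were made there without a pseudocount, so the other pseudocounts could not change a side. The summed ratio lay between 0.889 (TMM) and 1.05 (reads in both libraries). The alternative restricted to names with a C2H2 finger in a protein sequence was not run. No paired analysis was possible because each group had 1 library. Depth limits every call: a 2-fold ratio needs more reads than most of these circRNAs had, and the variation between animals was not measured.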

Other observations

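Both patterns here were picked after their values were seen and are given as values. The 12 zinc finger hosts on chromosome 1 had 42 reads in BCP and 121 in sham, 2.01-fold lower in BCP (1.40 to 2.93), and 11 of the 12 had a ratio below 1. The exception, Zfp629, had 2 reads in BCP and was listed at 0 in sham. Among those below 1, Zkscan2, Zfp94, Zfp52, Zfp606 and Zfp772 were listed at 0 in BCP, with at most 5 reads each in sham, the deeper library. The share of all hosts with a ratio below 1 was not computed. Without Zfp536 and Zfp382 the other 10 genes had 26 reads in BCP and 63 in sham (1.69-fold lower, 1.05 to 2.78). Counting just the circRNAs that both libraries listed, 6 of the 12 genes, Zfp536 and Zfp382 among them, had 40 reads in BCP and 94 in sham (1.64-fold lower, 1.12 to 2.44). The other 1177 circRNAs of chromosome 1 had a ratio of 0.971 (0.942 to 1.00), and zinc finger hosts on other chromosomes one of 1.03 (0.928 to 1.15). Chromosome 1 was picked from 18 with such hosts and was not alone in leaving out 1. Zinc finger hosts on chromosome 5 had a ratio of 2.22 (1.36 to 3.68). On chromosome 17, with Zeb1 as its single such host, it was 0.229 (0.0580 to 0.664). Each remaining chromosome had an interval that held 1. Among these chromosome 1 genes are the KRAB genes Zfp382, Zfp235, Zfp28 and Zfp606, the last listed at 0 in BCP against 2 reads in sham.

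By length, the 15 zinc finger host circRNAs of at most 1000 bp, among them those of Zfp292, Klf7 and Zbtb48, had 110 reads in BCP and 107 in sham, a ratio of 1.47 (1.12 to 1.94). Part of this sum were 2 circRNAs higher by the size rule, of Zfp292 (31 reads in BCP and 16 in sham) and Zbtb48 (9 and 2). The sum without them was not computed, so a shift of the short circRNAs apart from these 2 is not shown. The 104 longer ones had 523 reads in BCP and 834 in sham (0.899, 0.804 to 1.00). Over the whole table, circRNAs of at most 1000 bp had a ratio of 1.10 (1.08 to 1.13). The median span was 4599 bp among zinc finger host circRNAs and 9764 bp among all others.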
